A study of Mus musculus with 32 samples.

Results

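This account follows 36 interferon-stimulated genes in mouse regulatory T cells (Tregs), which depend on the factor Foxp3 and restrain the rest of the immune system. The genes came from a list of symbols, which was matched to the gene names in the RNA-seq table of every library by name alone. All 36 were among the 54087 genes of each table and all passed the filter on low counts, as part of the 14313 genes tested. The cells were purified GFP+ Tregs of C57BL/6 mice aged 2.5 months that carry the Foxp3-IRES-GFP knock-in, which marks every cell that transcribes Foxp3 with a fluorescent protein. Resting Tregs gave 3 libraries. All other cells were cultured for 18 h or 36 h on plates coated with antibodies to CD3 and CD28, in medium with serum and mouse IL-2 at 10 ng/ml, which is what the control and agonist cultures share. Control cultures had no further addition and gave 3 libraries at each time. Agonist cultures also received, for TNFR2, 12 ng/ml of TNC-sc(mu)TNF80 (STAR2), the antibody 3H3 at 10 µg/ml for 4-1BB, TL1A at 12 ng/ml for DR3 or OX40L at 100 ng/ml for OX40. Each agonist gave 3 libraries at each time, except OX40 at 18 h with 2. These numbers are the n of each mean, SD and fold change given here. The doses of the 4 agonists differ, and no group was cultured without stimulation, so effects of stimulation, of IL-2 and of culture itself cannot be told apart when cultures are set against resting Tregs. The labels do not say whether the libraries of a group came from separate mice or cultures, so the p-values measure the spread between these libraries, which may be technical.

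Interferons are secreted proteins that warn cells of infection. Type I interferons bind the receptor pair IFNAR1 and IFNAR2, whose kinases JAK1 and TYK2 lead to assembly of ISGF3, a complex that holds STAT2 and IRF9 and binds the interferon-stimulated response element (ISRE). Interferon gamma, which T cells make, acts through IFNGR1 and IFNGR2 and leads to binding at the gamma-activated site (GAS). The genes induced in this way include sensors of viral RNA and DNA, enzymes that destroy or block viral RNA, proteins that hold virions at the cell surface, and large GTPases that attack the vacuoles in which bacteria and parasites live. Many are also expressed at a low standing level in cells without infection.

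Both binding motifs were looked for in the DNA around the members' start sites, since the values below divide the members into some that fell and some that rose. RefSeq windows on GRCm38.p6, from 250 bases before to 50 bases after the start, were at hand for 28 of the 36 members. On either strand, the core of the ISRE, which is GAAA, any 2 bases and GAAA again, was found in 18 of these 28 (64.3%), against 3.99% of all 27025 genes with a window. TTCNNNGAA, the GAS palindrome, was found in 8 of 28 (28.6%), against 9.55% of all genes, and 1 of the 27 ISRE matches overlapped a GAS match. A form of the kappaB site bound by NF-kB proteins, GGGA, any 2 bases and TTCC, was found in 2 of 28 members (7.14%), against 1.63% of all genes. This last motif was searched after the values had been seen. The pair that held it was Gbp2 and Gbp5. The 5 windows printed next, each cut to 30 bases after the start, show 2 genes that fell with culture (Isg15 and Ifit1), a guanylate-binding protein gene that fell (Gbp7), and the 2 with a kappaB match that rose (Gbp2 and Gbp5). Capitals mark ISRE and kappaB matches, and lower case is the rest of the window, written 5′ to 3′ along the gene.
Isg15, minus strand of chr4:156200789-156201068: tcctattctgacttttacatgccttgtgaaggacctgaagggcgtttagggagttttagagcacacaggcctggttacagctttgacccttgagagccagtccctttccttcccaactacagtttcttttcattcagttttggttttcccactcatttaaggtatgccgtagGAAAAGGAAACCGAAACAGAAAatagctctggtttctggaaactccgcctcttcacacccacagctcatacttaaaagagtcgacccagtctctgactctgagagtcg
Ifit1, plus strand of chr19:34640639-34640918: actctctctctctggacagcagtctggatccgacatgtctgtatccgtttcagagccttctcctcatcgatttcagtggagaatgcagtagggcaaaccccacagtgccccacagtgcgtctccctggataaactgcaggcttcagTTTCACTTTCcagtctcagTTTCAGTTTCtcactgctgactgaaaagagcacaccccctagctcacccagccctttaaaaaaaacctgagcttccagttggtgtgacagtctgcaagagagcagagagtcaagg
Gbp7, plus strand of chr3:142530086-142530365: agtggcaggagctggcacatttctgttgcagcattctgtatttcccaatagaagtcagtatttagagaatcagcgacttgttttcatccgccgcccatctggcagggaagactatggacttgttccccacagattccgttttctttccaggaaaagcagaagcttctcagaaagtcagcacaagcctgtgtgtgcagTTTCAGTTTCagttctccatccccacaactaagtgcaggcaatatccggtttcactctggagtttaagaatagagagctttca
Gbp2, plus strand of chr3:142620413-142620692: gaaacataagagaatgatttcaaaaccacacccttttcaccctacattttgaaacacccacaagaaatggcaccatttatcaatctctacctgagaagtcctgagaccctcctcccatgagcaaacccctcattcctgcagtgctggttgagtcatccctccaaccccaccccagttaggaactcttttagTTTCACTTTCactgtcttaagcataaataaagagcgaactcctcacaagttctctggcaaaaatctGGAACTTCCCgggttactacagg
Gbp5, plus strand of chr3:142496684-142496963: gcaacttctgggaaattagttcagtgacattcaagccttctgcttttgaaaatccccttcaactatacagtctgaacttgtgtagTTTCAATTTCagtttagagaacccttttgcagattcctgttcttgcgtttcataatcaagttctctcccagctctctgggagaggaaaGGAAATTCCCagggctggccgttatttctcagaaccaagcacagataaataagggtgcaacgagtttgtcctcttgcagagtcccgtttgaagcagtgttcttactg
In Isg15 the capitals are 3 overlapping ISRE matches that begin 78, 72 and 66 bases before the start. In Ifit1 they are 2 separate matches, at 104 and 85 bases before it. Gbp7 has 1 ISRE match at 53 bases, Gbp2 has 1 at 59 bases followed by a kappaB match just after the start, and Gbp5 has 1 at 165 bases followed by a kappaB match at 77 bases. Of the 7 GTPase genes, 6 held an ISRE match, the exception being Ifi47. An ISRE match was thus present both in members that fell and in members that rose, and a match describes the letters of these windows, not binding.

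The libraries held 11880270 to 38083925 expected counts each, and levels below are CPM, counts scaled to a common library total, as CPM by edgeR. Treg genes were present in all groups: Foxp3 had a mean of 520.2 CPM at rest, 582 CPM in 18 h controls and 369 CPM in 36 h controls. A ribosomal transcript on chromosome 17 (39846958 to 39848788) passed 10000 CPM in 6 libraries, its CPM being taken from unadjusted totals of all genes. It ranged from 8114 to 26030 CPM in controls at 18 h and from 1329 to 3370 CPM at rest. Leaving those 6 libraries out leaves 1 control at 18 h, and counts obtained without them are given beside some of the results. Markers of myeloid and dendritic cells, which express many of these members strongly, summed to 16.7 to 18.9 CPM at rest and 4.90 to 6.38 CPM in controls at 18 h over 12 genes, of which 1 at rest and 3 at 18 h had no count. Csf1r, the macrophage growth factor receptor, went from 4.41 to 0.0905 CPM and Lyz2, lysozyme, from 2.27 to 0.421 CPM. Siglech and Klk1, markers of the plasmacytoid dendritic cells that secrete type I interferon, had 1 and 0 counts over all 32 libraries. The 10 B cell markers summed to 737 to 778 CPM at rest, nearly all of it Ighm (immunoglobulin mu) at 721 CPM, and to 299 to 322 CPM in controls at 18 h. Plasmacytoid markers as a whole summed to 138.8 to 143.5 CPM at rest and 57.2 to 62.8 CPM at 18 h over 8 genes, 2 of them without a count. Nearly all of that sum came from genes other than Siglech, Klk1 and Cox6a2, the last with 8 counts over all 32 libraries. From rest to 18 h the myeloid, B cell and plasmacytoid sums moved in the same direction as most members. The sum of 10 Treg markers rose, from 4290 to 4524 CPM at rest to 7092 to 7166 CPM at 18 h. At 36 h the myeloid sum was higher again, at 12.6 to 14.1 CPM, and the plasmacytoid and B cell sums were lower, at 42.8 to 44.8 CPM and 271 to 285 CPM. The 8 markers of CD8 T and natural killer cells summed to more at each time, from 41.4 to 45.9 CPM at rest to 52.2 to 54.8 CPM at 18 h and 79.3 to 84.7 CPM at 36 h, with Ncr1 at 0 counts. The part of these markers in the results was not tested. In bulk RNA, fewer cells of a type and less RNA per cell cannot be told apart.

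At rest, the members were already transcribed, at levels that spanned a 270.0-fold range. Between genes the levels are compared as TPM, which are divided by transcript length. Samhd1, a triphosphohydrolase that lowers the cell's nucleotide pool and so starves viral reverse transcription, was the most abundant at 948 ± 13.1 TPM (SD). It was followed by the GTPase genes Ifi47 (245 ± 1.22 TPM) and Igtp (192 ± 9.25 TPM), then by Zbp1, a sensor of Z-form nucleic acid (142 ± 8.16 TPM), and Irf9, the DNA-binding part of ISGF3 (133 ± 5.73 TPM). The lowest were Cmpk2, a mitochondrial nucleotide kinase (8.36 ± 1.44 TPM), and its neighbour on chromosome 12, Rsad2, which encodes the antiviral enzyme viperin (3.51 ± 0.175 TPM). The median over the 36 members was 67.3 TPM at rest, 23.6 TPM in controls at 18 h and 24.2 TPM at 36 h. The 7 GTPase genes made up 25.9% of the members' summed TPM at rest, 52.0% in controls at 18 h and 58.4% at 36 h, by which time Igtp (451 ± 4.69 TPM) had replaced Samhd1 (242 ± 0.505 TPM) in first place. Rsad2 was the lowest member in controls too, with a mean of 0.0567 TPM at 36 h, where 5, 1 and 2 counts lay behind its 3 values.

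**Figure D1:**
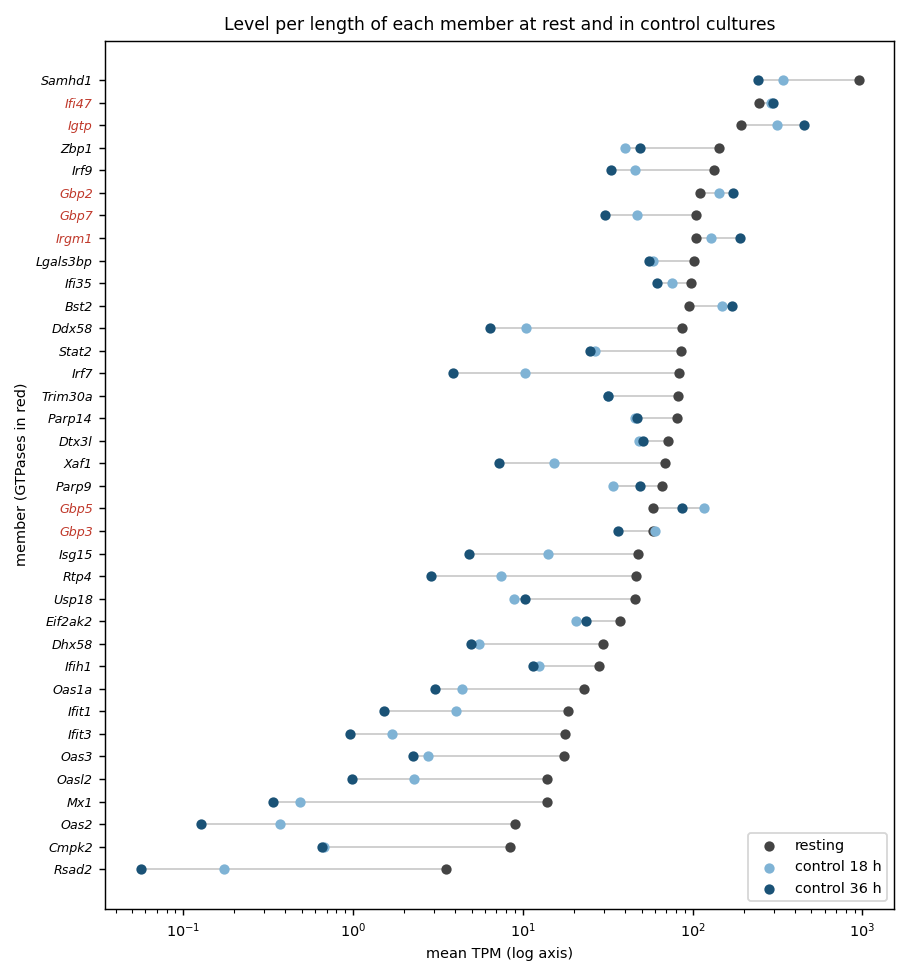
Mean TPM of each of the 36 members in resting libraries and in control cultures at 18 h and 36 h, on a log axis, ordered by the resting level (3 libraries per group; GTPase genes labelled in red). Most members shift to the left with culture, while Ifi47, Igtp, Irgm1, Gbp2, Gbp5 and Bst2 shift to the right.

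How the standing level of interferon-stimulated genes in Tregs compared with that of stimulated Tregs was asked with the control cultures. At 18 h, 29 of the 36 members were lower than at rest and 7 were higher, and the median log2 fold change was −1.36. Over all 14313 genes 80.9% were called, 40.1% lower and 40.9% higher, and the median was −0.01, so being called is no mark of the members, while the direction was uneven among them. Of the members, 23 fell by at least 2-fold (20.6% of all genes did) and 1, Gbp5, rose by as much (19.9% of all genes). At 36 h, 30 members were lower and 6 higher than at rest (42.1% and 42.4% of all genes; 84.5% called), with a median of −1.82, and 23 fell and 2 rose by at least 2-fold (24.2% and 23% of all genes). Both comparisons use the same resting libraries. Leaving out the 6 libraries rich in the ribosomal transcript gave 29 lower and 6 higher at 18 h, and 30 and 6 at 36 h.

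**Figure D2:**
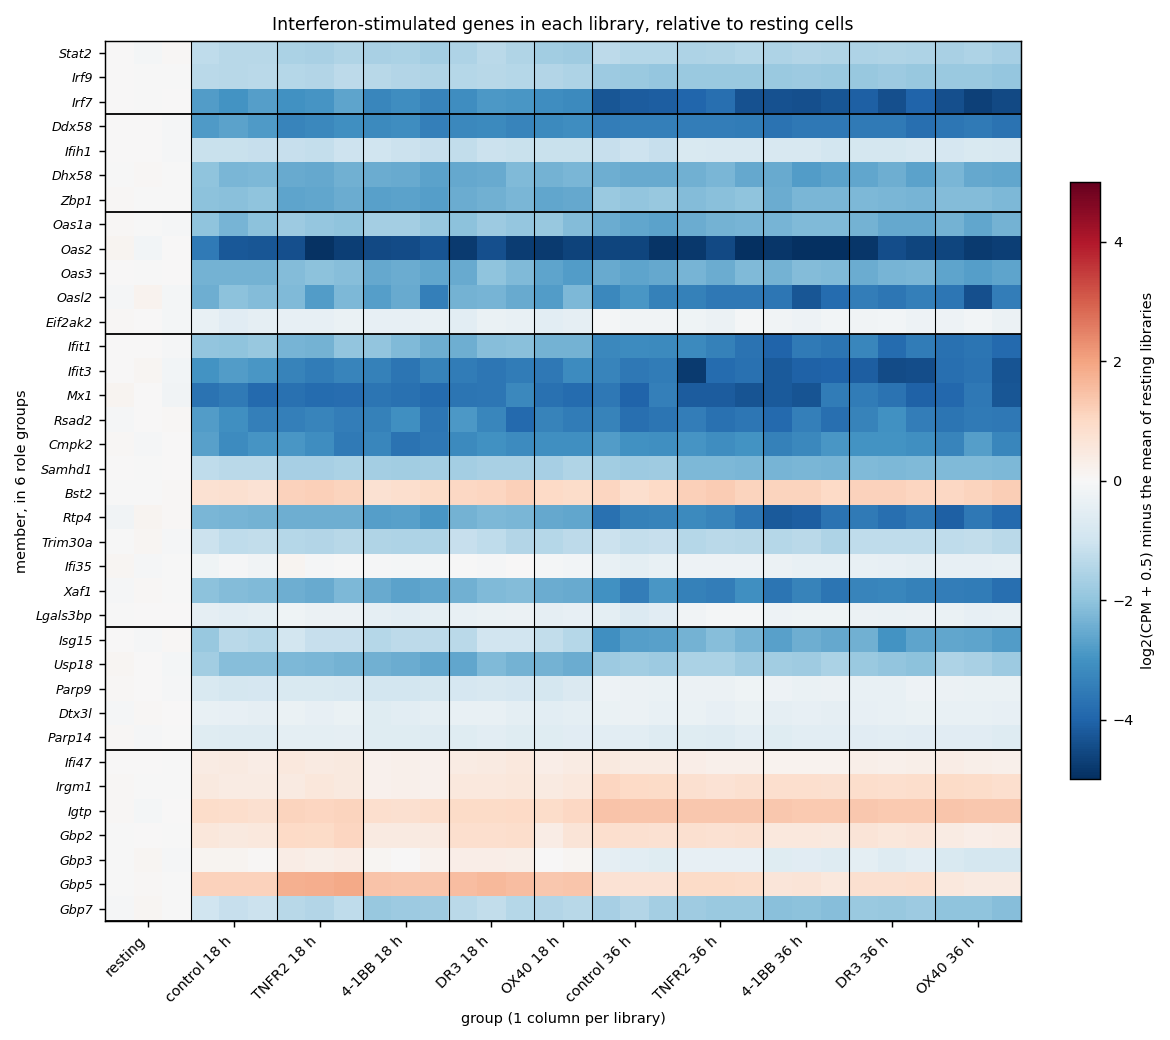
Each of the 36 members (rows, in 6 role groups divided by lines) in each of the 32 libraries (columns), as log2(CPM + 0.5) minus the mean of the 3 resting libraries. The blue rows, lower than at rest, cover 5 of the role groups. Exceptions there are Bst2, which rose, and Ifi35, whose group mean was highest with TNFR2 at 18 h and not at rest. The other red rows lie in the GTPase group at the bottom, where Gbp7 alone is blue throughout.

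The 3 transcription factors among the members, Irf7, Irf9 and Stat2, all fell. Irf7, a factor that amplifies type I interferon production, had 73.02, 70.8 and 73.4 CPM in the resting libraries, 10.1, 8.57 and 10.3 CPM in the 18 h controls and 3.25, 3.58 and 3.70 CPM in those at 36 h. The 3 groups did not overlap, and the log2 fold change against rest was −2.90 ± 0.09 (SE; adjusted p 2.85e-33) at 18 h and −4.36 ± 0.10 (1.59e-38) at 36 h. Between 18 h and 36 h Irf7 fell by a further 2.75-fold. Irf9 had 169, 161 and 164 CPM at rest, 64.5, 62.1 and 64.1 CPM at 18 h and 46.4, 45.3 and 42.4 CPM at 36 h, and Stat2, its partner in ISGF3, 111, 104 and 114, then 45.3, 41.3 and 42.00, then 43.3, 40.1 and 40.2 CPM. Irf9 was thus lower at 36 h than at 18 h (−0.51 ± 0.04, adjusted p 1.06e-13), whereas the difference of Stat2 between the times did not pass (−0.06 ± 0.05, 0.386).

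All 4 sensors fell. Ddx58 encodes RIG-I, which recognises viral RNA ends, and had 134, 134 and 127 CPM at rest against 18.4, 20.2 and 17.9 CPM at 18 h, a 7.02-fold fall (−2.81 ± 0.06, adjusted p 9.06e-39). Its relatives Ifih1 (MDA5, a sensor of long double-stranded RNA) and Dhx58 (LGP2) fell by 2.22-fold and 4.82-fold, and Zbp1 by 4.21-fold, from 126, 119.7 and 122 to 29.2, 28.3 and 29.7 CPM. No resting library overlapped a cultured one for any of these 4 genes. From 18 h to 36 h only Ddx58 (−0.67 ± 0.07, 1.25e-10) and Dhx58 (−0.36 ± 0.12, 0.00957) fell further. The Dhx58 call was lost without the first control library at 18 h, at −0.27, and without the ribosomal-rich libraries, at −0.30, while Zbp1 rose slightly (0.16 ± 0.06, 0.0157), a call that 4 of the alternatives ended.

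The oligoadenylate synthetases answer double-stranded RNA by making the messenger that activates RNase L. All 4 of their genes among the members fell, and these lie within 1 region of chromosome 5 except Oasl2 at 114896936 to 114912234. Oas2 (120730333 to 120749853) showed the second largest fall of the members at 18 h, from 18.4, 15.4 and 17.1 CPM to 1.01, 0.434 and 0.396 CPM (−4.80 ± 0.24, adjusted p 1.52e-23). At 36 h it had 0.232, 0.224 and 0.0822 CPM. Oas3 fell by 5.43-fold, Oas1a by 4.72-fold and Oasl2 by 5.31-fold at 18 h. Eif2ak2, which encodes the RNA-activated kinase PKR that stops translation, moved least in this group. It had 60.5, 59.4 and 53.8 CPM at rest, 44.9, 38.97 and 42.2 CPM at 18 h and 53.4, 50.95 and 51.8 CPM at 36 h, so it fell by 1.38-fold and then rose again (0.31 ± 0.05, 3.31e-06).

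Among the 12 other antiviral genes, 11 fell and Bst2 rose at 18 h. Mx1, a gene of the dynamin-like GTPase family, showed the largest fall of all members at that time, from 11.7, 10.7 and 9.07 to 0.336, 0.434 and 0.247 CPM. Its log2 fold change was −4.93 ± 0.31 (adjusted p 8.93e-20). Rsad2 and Cmpk2, which lie next to each other in opposite orientation (26442746 to 26456452 and 26469204 to 26479837), fell by 18.2-fold and 10.2-fold. Ifit1 and Ifit3, which bind foreign RNA and lie on chromosome 19 (34640871 to 34650009 and 34583531 to 34588731), fell from 25.4, 25.1 and 23.9 to 5.99, 5.75 and 6.33 CPM and from 15.4, 16.2 and 13.5 to 1.46, 1.74 and 1.58 CPM. Ifit1 went on to 2.23, 2.38 and 2.26 CPM at 36 h (−1.40 ± 0.15 against 18 h, 8.2e-11). Reads of Ifit3 can be shared with its near-copy Ifit3b, which had 2.25 CPM at rest and 0.161 CPM at 18 h, so the values of Ifit3 are uncertain to that extent. The smallest falls of this group were those of Lgals3bp (−0.48) and Ifi35 (−0.16), and the call of Ifi35 was lost without the first resting library, at −0.10, and without a filter on low counts, at −0.12.

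Samhd1 carried the largest loss of transcript among them. It had 1239, 1199 and 1229 CPM at rest, 505, 481 and 481 CPM at 18 h and 367, 346 and 352 CPM at 36 h. The fold changes were −1.32 ± 0.03 (adjusted p 2.57e-35) and −1.78 ± 0.04 (1.02e-40) against rest, and −0.46 ± 0.03 (5.94e-16) between the times. Bst2, which encodes tetherin, the protein that holds budding virions on the cell, went the other way with 31.4, 31.3 and 33.1, then 54.5, 55.9 and 53.5, then 68.3, 57.1 and 63.9 CPM. It was 1.71-fold higher than at rest at 18 h (0.78 ± 0.06, 7.07e-16) and 1.98-fold higher at 36 h. Its window holds 2 of the ISRE matches counted above, at 130 and 124 bases before the start. Rtp4, Xaf1 and Trim30a fell by 5.49-fold, 4.60-fold and 2.31-fold at 18 h, and Rtp4 and Xaf1 were lower still at 36 h (−1.34 and −1.07).

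The ISG15 group split by size of fall. Isg15, a small protein that is joined to others like ubiquitin, had 14.96, 14.4 and 15.3 CPM at rest, 3.69, 5.54 and 5.29 CPM after 18 h and 1.34, 1.79 and 1.85 CPM after 36 h. Its fold changes against rest were −1.61 ± 0.13 (adjusted p 4.55e-16) and −3.15 ± 0.15 (8.56e-25). Usp18, the protease that removes ISG15 and shuts off the type I receptor, fell by 4.21-fold at 18 h, from 36.5, 34.1 and 31.3 to 9.68, 7.27 and 7.37 CPM, with no call between the times (0.22 ± 0.10, 0.0716). Parp9 and Dtx3l, whose products work as a pair and whose genes overlap head to head on chromosome 16 over 682 bases, fell by 1.78-fold and 1.33-fold. The library kit does not mark strand, so reads in the overlap cannot be assigned. Parp14, next to them, fell by 1.56-fold, and Parp9 had risen again by 36 h (0.54 ± 0.04, 1.99e-14).

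Most of the 7 GTPase genes, which are the immunity-related GTPases and guanylate-binding proteins among the members, moved the opposite way to most other members. Of the 7, 6 were higher and Gbp7 lower at 18 h, with a median of 0.44 against −2.07 for the other 29. Mx1 is counted among those 29. The 3 immunity-related GTPases among the members, of a family with a part in defence against parasites in vacuoles, lie on chromosome 11. Igtp (Irgm3; 58199556 to 58207591) rose most among these, from 197, 179.7 and 193 CPM to 356, 347 and 334 CPM by 18 h and 507, 492 and 497 CPM by 36 h (0.86 ± 0.03, adjusted p 1.56e-27, and 1.39 ± 0.03, 1.85e-36). Irgm1 (48861968 to 48871683) had 118, 112 and 112, then 159, 154 and 152, then 242, 232 and 220.3 CPM, and Ifi47 (49076587 to 49096974) 201, 199 and 197, then 265, 268 and 254, then 283, 262 and 265 CPM. Igtp and Irgm1 rose at each step, while Ifi47 rose by 18 h and its difference from 18 h to 36 h did not pass (0.04 ± 0.03, 0.344). In the annotation Igtp overlaps Irgm2 and Ifi47 overlaps Olfr56 on the same strand, so their counts can be shared out between these genes. Irgm2 was lower than at rest at 18 h (−0.64 ± 0.05, 6.53e-17).

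The 4 guanylate-binding protein genes lie side by side on the plus strand of chromosome 3, in the order Gbp5 (142493978 to 142522344), Gbp7 (142530342 to 142550149), Gbp3 (142560026 to 142573209) and Gbp2 (142620602 to 142638008). Their products are large GTPases that coat bacteria and parasite vacuoles. Gbp5, which also promotes assembly of the NLRP3 inflammasome, had 90.6, 96.96 and 90.3 CPM at rest, 205, 206 and 207 CPM at 18 h and 155, 155 and 152 CPM at 36 h. It thus peaked at 18 h (1.15 ± 0.04, adjusted p 9.76e-32) and then came down (−0.42 ± 0.03, 7.63e-15). Gbp2 had 139, 142 and 140.5, then 206, 197 and 201, then 252, 244 and 236 CPM and rose at both steps (0.52 ± 0.04, 8.43e-15, and 0.28 ± 0.04, 3.32e-07). Gbp7, between Gbp5 and Gbp3, fell from 229, 251 and 231 CPM to 117, 107 and 114 CPM and 73.9, 85.2 and 73.1 CPM (−1.08 ± 0.05, 7.4e-20, and −0.54 ± 0.06, 3.03e-10). Gbp3 overlapped between rest and 18 h, with 72.8, 79.6 and 71.9 against 83.2, 81.1 and 78.2 CPM. Its small rise (0.11 ± 0.05, 0.0392) was lost under 5 of the 8 other settings and under 4 of the 6 left-out libraries, the controls and resting libraries that decide it being the controls numbered 1 and 2 and the resting libraries numbered 1 and 3, and it was −0.01 under the stricter filter. By 36 h it was below rest (−0.53 ± 0.05, 1.49e-13). Gbp5 and Gbp7, neighbours that each hold an ISRE match, thus moved in opposite directions.

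**Figure D3:**
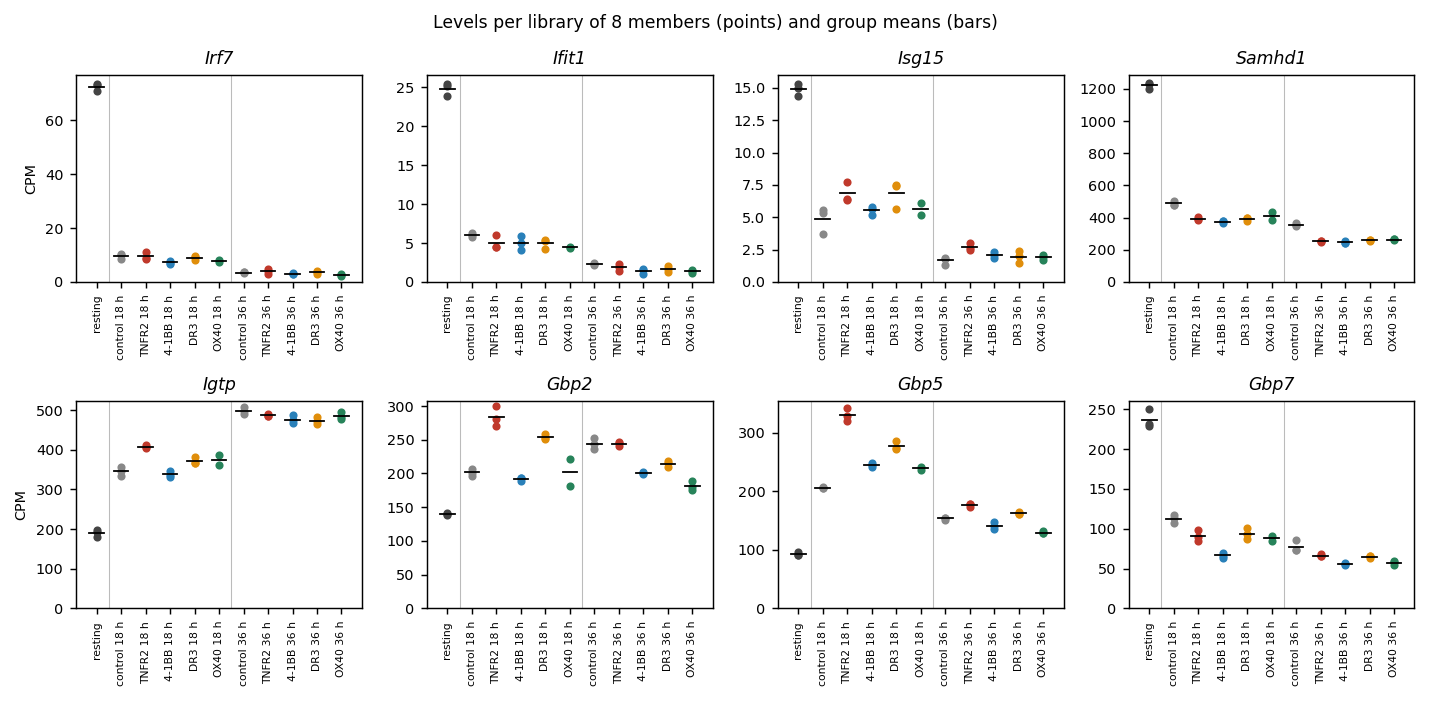
CPM per library (points) and group mean (bars) of 8 members in all 11 groups, in order of resting cells, the 18 h groups and the 36 h groups; axes start at 0. Irf7, Ifit1, Isg15 and Samhd1 are highest at rest, Igtp is highest in cultures at 36 h, Gbp2 and Gbp5 peak with the TNFR2 agonist at 18 h, and Gbp7 falls throughout.

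From 18 h to 36 h of control culture 25 members were called, 18 lower and 7 higher (26.6% and 25.6% of all genes, 52.2% called), with a median of −0.24 over the members and −0.02 over all genes. The largest falls were those of Oas2 (−1.74 ± 0.47, adjusted p 0.0017), Rsad2 (−1.61 ± 0.62, 0.027), Isg15 (−1.54 ± 0.17, 1.52e-10) and Irf7. The largest rises were those of Irgm1 (0.58 ± 0.04, 2.88e-18), Parp9, Igtp and Eif2ak2. Without the 6 libraries rich in the ribosomal transcript 20 members were called, 14 lower and 6 higher, and the calls of Oas2 (−1.14) and Rsad2 (−0.72) were among those lost. The Oas2 call was also lost without the first control at 18 h (−1.20). The Rsad2 call, whose groups overlap, was lost without either of the first 2 controls at 18 h (−1.24 and −1.60) or either of the last 2 at 36 h (−1.25 and −1.40).

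Genes around the members were described from lists of the pathway's other parts. Interferon transcripts were all but absent: Ifnb1 had no count in any of the 32 libraries, which allows at most 0.00478 CPM over their total, and Ifna1, Ifna2, Ifna4 and Ifna5 had 2, 8, 3 and 1 counts in all. Ifng was the exception: resting libraries had 6.55, 6.37 and 6.10 CPM, 18 h controls 9.23, 11.6 and 10.9 CPM and 36 h controls 24.4, 23.03 and 27.3 CPM (0.74 ± 0.19, adjusted p 0.0011, and 1.97 ± 0.16, 3.77e-11). All 5 receptor chains tested fell at 18 h. Ifnar1 had 252, 241 and 243 CPM at rest and 84.5, 84.4 and 85.8 CPM at 18 h (−1.53 ± 0.04, 1.74e-37), Ifnar2 fell by 1.89-fold and Ifngr2 by 1.73-fold. Ifngr1 fell less by 18 h (−0.35 ± 0.04) than Ifnar1 and went on falling to 36 h (−0.74 ± 0.04, 1.53e-20).

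Of the 14 genes of the JAK-STAT arm, 7 rose and 7 fell at 18 h. Over all genes 40.9% were higher and 40.1% lower in that comparison, from which the next counts also come. The kinases of the type I receptor, Jak1 and Tyk2, fell by 2.22-fold and 2.32-fold. The feedback inhibitor Socs1 rose from 62.1, 65.6 and 72.97 to 148, 140.2 and 141 CPM (1.10 ± 0.07, 4.19e-13), and Socs3 fell (−1.40 ± 0.06, 7.2e-28). Among 17 tested genes of the arm that turns sensing into interferon, 7 rose and 8 fell. Irf8, a factor of lymphoid and myeloid development, rose from 32.8, 37.2 and 36.8 to 765, 791 and 788 CPM (4.46 ± 0.04, 4.8e-52), while the kinase gene Ikbke fell from 452 to 94.8 CPM on average. Irf1, which can drive GTPase genes without ISGF3, had 214, 211 and 205 CPM at rest and 207, 208 and 207 CPM at 18 h, a difference that did not pass (−0.02 ± 0.03, 0.6). Of the 63 tested genes in a second list of interferon-stimulated genes, 55 fell and 6 rose at 18 h, with a median of −1.74, and examples of the falls are Shisa5 (−1.97), Ly6e (−1.68), Sp100 (−1.74), Slfn5 (−2.50) and Ifit1bl1 (−4.78). Other GTPases were in this list too, and Gbp9 fell (−2.04, 2.73e-37) while Iigp1, named after its values were seen, rose (0.74, 3.19e-10). Of 13 genes of MHC class I presentation, which type I and gamma interferon also induce, 9 fell and 4 rose, among them H2-K1 (−1.22), Nlrc5 (−1.04), Erap1 (0.85) and Psme2 (0.73).

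What an agonist of each receptor added to the stimulated culture was asked against the control of the same time. TNFR2, 4-1BB, DR3 and OX40 are receptors of the TNF superfamily on activated Tregs and pass their signal mainly to NF-kB. The 4 comparisons of a time share their control libraries, so they are not independent of each other. At 18 h with the TNFR2 agonist, 9 members were higher and 9 lower (15.8% and 15.3% of all genes, 31.1% called), with a median of −0.03 over members and −0.01 over all genes. With 4-1BB, 2 were higher and 17 lower (12.7% and 13.1%, 25.8% called; median −0.20 against 0.00). With DR3, 8 were higher and 7 lower (9.66% and 9.94%, 19.6% called; median 0.00 against −0.01). With OX40, 3 were higher and 11 lower (9.32% and 9.71%, 19% called; median −0.17 against −0.01). Without the 6 libraries rich in the ribosomal transcript, 2 of which are controls at 18 h, the counts were 7 higher and 3 lower with TNFR2, 1 and 8 with 4-1BB, 4 and 4 with DR3 and 1 and 4 with OX40, all of them members already called with every library. Of the members named next for 18 h, those whose call was lost in that setting are named as such.

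At 36 h with the TNFR2 agonist 6 members were higher and 8 lower than in the control (13% and 11.9% of all genes, 24.8% called; median −0.03 against 0.00 over all genes). With 4-1BB, 4 were higher and 14 lower (10.9% and 11.5%, 22.5% called; median −0.18). With DR3, 3 were higher and 7 lower (6.97% and 6.39%, 13.4% called; median −0.07). With OX40, 3 were higher and 12 lower (7.12% and 6.21%, 13.3% called; median −0.14). With the 4-1BB and the OX40 agonist, lower members outnumbered higher ones at both times, while all genes divided almost evenly.

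**Figure D4:**
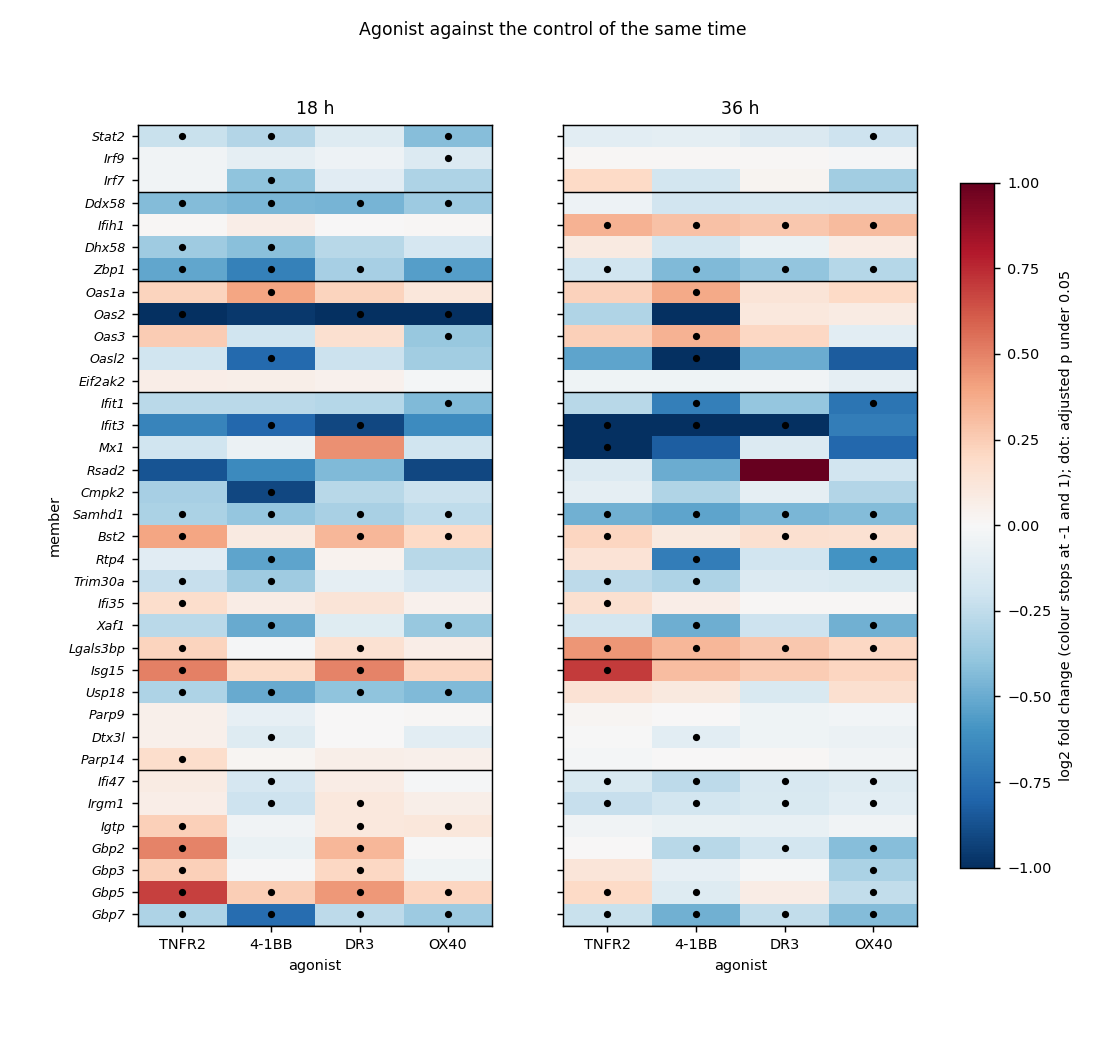
Log2 fold change of each member (rows, in 6 role groups) with each agonist (columns) against the control of its time, at 18 h (left) and 36 h (right); the colour scale stops at −1 and 1, and a dot marks an adjusted p under 0.05. Gbp7, Zbp1 and Samhd1 are blue with a dot in all 8 columns, Gbp5 is red at 18 h, and Ifih1 and Lgals3bp are red at 36 h.

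Agonists lowered some members further below their control level. Samhd1 had 505, 481 and 481 CPM in controls at 18 h against 388, 386 and 404 CPM with TNFR2, 377, 365 and 378 CPM with 4-1BB, 376, 396 and 400.5 CPM with DR3 and 386 and 435 CPM with OX40. None of these agonist libraries reached the lowest control, and the fold changes were −0.32 ± 0.03, −0.39 ± 0.03, −0.32 ± 0.03 and −0.25 ± 0.04, with adjusted p at most 1.86e-06. At 36 h they were −0.48 ± 0.04, −0.53 ± 0.04, −0.45 ± 0.04 and −0.43 ± 0.04. Zbp1 had 29.2, 28.3 and 29.7 CPM in controls at 18 h, 19.4, 19.96 and 21.6 CPM with TNFR2, 18.02, 18.7 and 17.9 CPM with 4-1BB, 21.6, 22.9 and 24.97 CPM with DR3 and 19.6 and 20.2 CPM with OX40, fold changes of −0.52 ± 0.06, −0.67 ± 0.06, −0.33 ± 0.06 and −0.55 ± 0.07. At 36 h they were smaller with TNFR2 (−0.20 ± 0.06, lost without the first TNFR2 library, at −0.16, and without the ribosomal-rich libraries, at −0.15) and −0.44 ± 0.06, −0.39 ± 0.06 and −0.29 ± 0.06 with the other three. For both genes every agonist library thus lay below every control of its time.

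The sensors Ddx58 and Ifih1 each passed against the control at a single time. The test of the difference between times passed for Ddx58 with TNFR2 only, and for Ifih1 with TNFR2 and OX40 only. Each of these results was lost under some alternatives. Ddx58 was lower at 18 h, by −0.43, −0.46, −0.47 and −0.36 with TNFR2, 4-1BB, DR3 and OX40, of which the TNFR2 and OX40 calls were lost without the ribosomal-rich libraries, at −0.29 each. At 36 h none of its 4 differences passed, with values from −0.19 to −0.05. Ifih1 was called at 36 h alone. It had 26.1, 28.2 and 26.00 CPM in controls at 36 h against 34.4, 33.8 and 34.1 CPM with TNFR2, 33.5, 33.95 and 31.03 CPM with 4-1BB, 31.7, 31.9 and 33.5 CPM with DR3 and 32.5, 34.8 and 33.3 CPM with OX40. All agonist libraries lay above all controls (0.35 ± 0.05, 0.29 ± 0.05, 0.27 ± 0.05 and 0.32 ± 0.05, adjusted p at most 0.000235), while at 18 h the values were 0.01, 0.06, 0.00 and 0.01 and none passed. Stat2 was lower at 18 h with 4-1BB (−0.30 ± 0.05, 2.36e-05) and OX40 (−0.42 ± 0.06, 5.4e-07), with a smaller difference with TNFR2 (−0.22) whose call was lost without the ribosomal-rich libraries, at −0.17. At 36 h Stat2 was lower with OX40 (−0.20, 0.00479), a call lost without the first control, at −0.17. Irf7 was lower with 4-1BB at 18 h (−0.41 ± 0.11, 0.00377), with 7.20, 7.89 and 6.81 CPM against 10.1, 8.57 and 10.3 CPM in controls.

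Lgals3bp, Bst2 and Isg15 were members that agonists raised. Lgals3bp, a secreted glycoprotein, had 67.4, 59.2 and 63.4 CPM in controls at 36 h and 83.3, 87.1 and 87.5 CPM with TNFR2, 78.7, 80.6 and 80.4 CPM with 4-1BB, 76.9, 75.3 and 77.3 CPM with DR3 and 74.4, 71.2 and 73.4 CPM with OX40, and all agonist libraries were above the controls. The fold changes were 0.44 ± 0.04, 0.34 ± 0.04, 0.27 ± 0.04 and 0.21 ± 0.04. Bst2 was higher at 18 h with TNFR2 (71.8, 73.3 and 70.6 CPM; 0.40 ± 0.05, adjusted p 5.91e-08) and DR3 (65.6, 68.1 and 72.9 CPM; 0.33 ± 0.06, 7.41e-06) than in controls (54.5, 55.9 and 53.5 CPM). Isg15 was higher with TNFR2 at 36 h, with 2.48, 3.04 and 2.60 CPM against 1.34, 1.79 and 1.85 CPM (0.70 ± 0.19, 0.0054). At 18 h its calls with TNFR2 (0.50 ± 0.14) and DR3 (0.50 ± 0.14) were lost without the first control library, which had the lowest Isg15 value of the controls, at 0.35 and 0.34, and without the ribosomal-rich libraries, at 0.27 and 0.37. The TNFR2 call was also lost without the first TNFR2 library (0.40) and the DR3 call without the second DR3 library (0.42). Trim30a was lower with TNFR2 and 4-1BB at 36 h (−0.26 ± 0.06 and −0.31 ± 0.06).

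The GTPase genes were called in different directions with different agonists and times. At 18 h with TNFR2, 4 of the 7 rose and 1 fell, with DR3 5 and 1, with 4-1BB 1 and 3, and with OX40 2 and 1. Without the ribosomal-rich libraries these counts were 4 and 1 with TNFR2, 3 and 1 with DR3, 1 and 2 with 4-1BB and 1 and 1 with OX40. The lost calls were the rises of Igtp and Irgm1 with DR3 and of Igtp with OX40, and the fall of Ifi47 with 4-1BB. At 36 h 1 rose and 3 fell with TNFR2, and 5, 4 and 6 fell with 4-1BB, DR3 and OX40, the last being 5, with Irgm1 lost, without those libraries. Gbp5 had 205, 206 and 207 CPM in controls at 18 h, 320.1, 328 and 342 CPM with TNFR2, 249, 242 and 244 CPM with 4-1BB, 272, 286 and 274 CPM with DR3 and 236 and 242 CPM with OX40. Every agonist library lay above every control, with fold changes of 0.68 ± 0.03, 0.25 ± 0.03, 0.43 ± 0.03 and 0.21 ± 0.04, adjusted p 3.92e-22, 4.56e-08, 2.4e-14 and 1.95e-05. At 36 h the controls had 155, 155 and 152 CPM, and only TNFR2 cultures remained called higher, with 178, 178 and 174 CPM (0.20 ± 0.03, 1.14e-05). With 4-1BB Gbp5 had 139.8, 147 and 135 CPM (−0.13 ± 0.03, lost without the 4-1BB library numbered 3, at −0.10), with OX40 132, 128 and 128 CPM (−0.25 ± 0.03, 3.69e-07), and with DR3 160.5, 161 and 164 CPM, a difference that did not pass (0.07 ± 0.03, 0.154).

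Gbp2, too, was highest with TNFR2 and DR3. At 18 h it had 281, 270.0 and 299.8 CPM with TNFR2 and 251, 252 and 259 CPM with DR3, against 206, 197 and 201 CPM in controls (0.49 ± 0.04, adjusted p 1.86e-13, and 0.33 ± 0.04, 2.78e-08). With 4-1BB (193, 194 and 189.6 CPM; −0.07 ± 0.04) and OX40 (182 and 222 CPM; 0.00 ± 0.05) no difference passed, and the 2 OX40 libraries lay on either side of the controls. At 36 h Gbp2 with TNFR2 was at control level (245, 241 and 246 against 252, 244 and 236 CPM; 0.00 ± 0.04, 1), and it was lower with 4-1BB (201, 202 and 199.9 CPM; −0.28 ± 0.04), DR3 (219, 209 and 216 CPM; −0.18 ± 0.04) and OX40 (188, 175 and 180.0 CPM; −0.43 ± 0.04, 5.66e-11). Gbp3 followed in smaller steps, higher at 18 h with TNFR2 (0.24 ± 0.05, 7.54e-05) and DR3 (0.21 ± 0.05, 0.000935) and lower at 36 h with OX40 (−0.31 ± 0.05, 8.42e-06). Gbp7 was lower with every agonist at both times, most with 4-1BB at 18 h, where it had 63.3, 66.3 and 69.7 CPM against 117, 107 and 114 CPM (−0.76 ± 0.06, 2.64e-13). Its other values at 18 h were −0.31, −0.26 and −0.36 with TNFR2, DR3 and OX40, and at 36 h −0.22, −0.48, −0.25 and −0.43 with TNFR2, 4-1BB, DR3 and OX40, of which the TNFR2 call was lost without the second control, at −0.15.

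The chromosome 11 GTPases moved less. Igtp rose at 18 h with TNFR2, to 411, 406 and 406 CPM (0.24 ± 0.03, adjusted p 1.04e-07), from 356, 347 and 334 CPM in controls. Its values at 36 h were −0.04, −0.07, −0.07 and −0.04 with TNFR2, 4-1BB, DR3 and OX40, and none passed. Irgm1 was lower with 4-1BB at 18 h (134, 135 and 135 against 159, 154 and 152 CPM; −0.20 ± 0.04, 3.65e-05). At 36 h Irgm1 was lower with TNFR2 (−0.23 ± 0.04), 4-1BB (−0.18 ± 0.04) and DR3 (−0.15 ± 0.04). Ifi47 was lower then with TNFR2 (−0.15 ± 0.03), 4-1BB (−0.26 ± 0.03) and DR3 (−0.16 ± 0.03). Both were also called lower with OX40 at 36 h, calls that 9 alternatives ended for Irgm1 and 2 for Ifi47.

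**Figure D5:**
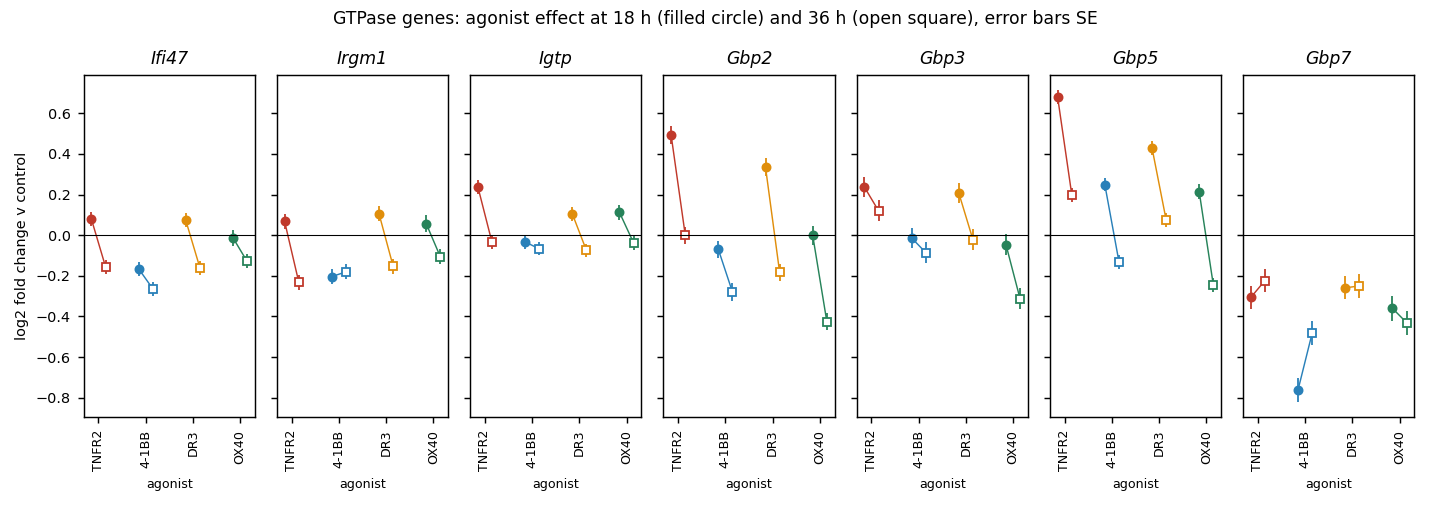
Log2 fold change against the control of the same time (error bars SE) of the 7 GTPase genes with each agonist, at 18 h (filled circles) and 36 h (open squares). Gbp2 and Gbp5 lie lower at 36 h than at 18 h with all 4 agonists, and Gbp7 lies below 0 throughout.

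Differences between agonists were tested jointly at each time and then in 6 pairs per time. At 18 h, 16 members differed among the 4 agonists (14.3% of all genes) and at 36 h 10 did (9.06% of all genes). The count at 36 h was 5 without the ribosomal-rich libraries and 6 without the first 4-1BB library. All 13 members called between TNFR2 and 4-1BB at 18 h were higher with TNFR2 (3.08% of all genes were higher and 2.48% lower, 5.56% called), and all 15 called between 4-1BB and DR3 were lower with 4-1BB (4.25% of all genes lower and 4.28% higher, 8.54% called). TNFR2 also exceeded OX40 in the 9 members called there at 18 h (4.32% of all genes higher and 3.86% lower, 8.19% called). Gbp5 at 18 h was higher with TNFR2 than with DR3 (0.25 ± 0.03, adjusted p 6.94e-07), and higher with DR3 than with 4-1BB (4-1BB minus DR3 −0.18 ± 0.03, 0.00012) and OX40 (0.22 ± 0.04, 0.000282). The difference of 4-1BB minus OX40 was 0.04 ± 0.04 (0.745) and did not pass. Gbp2 likewise had TNFR2 above DR3 (0.16 ± 0.04, 0.02) and DR3 above OX40 (0.34 ± 0.05, 6.99e-06). At 36 h TNFR2 remained above OX40 in Gbp5 (0.45 ± 0.04, 4.15e-13), Gbp2 (0.43 ± 0.04, 8.79e-10) and Gbp3 (0.43 ± 0.05, 6.56e-08). Oas3, the synthetase with the largest protein, was higher with TNFR2 than with OX40 at 18 h (0.64 ± 0.12, 0.000309), where it had 8.11, 8.78 and 8.29 and 5.70 and 5.04 CPM. The agonists were given at different doses, so these differences are between the cultures as treated.

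Pathway genes outside the list also differed with agonists. Ifngr1, the ligand-binding chain of the gamma receptor, was lower with all agonists, with 63.5, 63.5 and 63.02 CPM with TNFR2 at 18 h against 122, 118 and 112 CPM in controls, and fold changes of −0.89, −0.99, −0.68 and −0.48 with TNFR2, 4-1BB, DR3 and OX40. Its partner Ifngr2 was higher at that time (0.48, 0.56, 0.39 and 0.31). Irf1 was higher at 18 h with TNFR2 (0.34, 5.35e-12) and DR3 (0.23, 4.52e-07), and its values with 4-1BB (0.04) and OX40 (0.00) did not pass. Ifng differed in none of these comparisons, with values from −0.17 to 0.22. Of the 13 genes of MHC class I presentation, 11 were higher with TNFR2 at 18 h, 6 with 4-1BB, 11 with DR3 and 8 with OX40. The shares of all genes called higher were 15.8%, 12.7%, 9.66% and 9.32% in that order. In each, 1 of the 13 was lower, Nlrc5, their transactivator (15.3%, 13.1%, 9.94% and 9.71% of all genes lower). In the second list of interferon-stimulated genes, 10 of 63 were higher and 27 lower with TNFR2 at 18 h, and 4 and 26 with 4-1BB. Cxcl10, a chemokine gene of that list, was higher (1.43 with TNFR2 and 1.49 with 4-1BB), and Ifi209 was lower (−1.10 and −1.39).

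Whether an agonist's effect differed between the times was tested as the effect at 36 h minus that at 18 h. With TNFR2, 4 members were higher and 7 lower at 36 h (3.68% and 3.01% of all genes, 6.69% called). With 4-1BB, 4 were higher and 2 lower (2.34% and 2.03%, 4.37% called). With DR3, none was higher and 5 were lower (1.22% and 1.1%, 2.31% called). With OX40, 2 were higher and 4 lower (2.1% and 1.38%, 3.48% called). Without the ribosomal-rich libraries 5, 2, 3 and 2 passed. Gbp5 passed with every agonist and was lower at 36 h, by −0.48 ± 0.05 with TNFR2 (adjusted p 4.1e-10), −0.38 ± 0.05 with 4-1BB (1.36e-07), −0.35 ± 0.05 with DR3 (1.92e-06) and −0.46 ± 0.05 with OX40 (2.27e-08). Gbp2 passed with every agonist as well, by −0.49 ± 0.06, −0.21 ± 0.06, −0.52 ± 0.06 and −0.43 ± 0.06 in the same order. Ifi47 passed with TNFR2 (−0.23 ± 0.05) and DR3 (−0.23 ± 0.05), as did Igtp (−0.27 ± 0.05 and −0.18 ± 0.05) and Irgm1 (−0.30 ± 0.05 and −0.26 ± 0.05). The results of Igtp and Irgm1 with DR3 and of Gbp2 with 4-1BB were lost under at least 1 alternative, each of them without the ribosomal-rich libraries. The effect on Lgals3bp was larger at 36 h with 4-1BB (0.34 ± 0.06, 7.05e-05). The 4 differences share both sets of control libraries, so they are given side by side and not as independent results.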

How the data were processed

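Per the labels, RNA was extracted (NucleoSpin RNA XS) and amplified by SMART-Seq v4, which does not mark strand. Per the submitters' processing notes, FastQC, Trimmomatic, STAR 2.5.3a and RSEM 1.2.28 were used with mm10; for annotation release and counting strand, the value is "not given in the sources used here". Expected counts per gene, in which reads of several loci are shared out, and TPM were deposited by the authors. Identifiers and positions come from GENCODE M21 on mm10. Members, lists and tests were chosen with earlier results of these data known.

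Expected counts were rounded and tested with edgeR 4.0.16 (filterByExpr, TMM, 1 mean per group over all 32 libraries, robust quasi-likelihood F test). Benjamini-Hochberg adjustment covered 14313 genes, and a gene was called under 0.05. Fold changes are log2 with the SE from the F statistic, and they compare shares of RNA, not amounts per cell. Members were named freely. From each other list up to 6 genes with the smallest p were named, with interferons, their receptors, Irf1, Socs1 and near-copies; 2 genes are not reported here. Total counts of 11880270 to 38083925 set the precision, and the limit for a gene without counts (3 counts) covers counting error only. Of the members, 16 overlap another annotated gene, 6 of them on the same strand. The fit was tested on simulated data. Alternatives were DESeq2 1.42.0, its size factors, other filters, the compared groups alone, a ratio of mean TPM, a replicate block, the ribosomal transcript as covariate or its 6 richest libraries left out, and each library left out in turn.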

Additional observations from a re-analysis of the deposited data

Results flagged for a closer look

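Results are listed here because the difference between an agonist's effect at 36 h and its effect at 18 h passed the test of that difference (edgeR's quasi-likelihood test, adjusted over all genes), each value being the log2 effect at 36 h minus that at 18 h. With the TNFR2 agonist the effect was lower at 36 h for Gbp2 (−0.49), Gbp5 (−0.48), Ifi47 (−0.23), Igtp (−0.27), Irgm1 (−0.30), Parp14 (−0.20) and Samhd1 (−0.17), and higher for Ddx58 (0.38), Ifih1 (0.33), Lgals3bp (0.22) and Zbp1 (0.32). With the 4-1BB agonist the effect was lower at 36 h for Gbp2 (−0.21) and Gbp5 (−0.38), and higher for Gbp7 (0.28), Lgals3bp (0.34), Oas3 (0.54) and Usp18 (0.61). With the DR3 agonist the effect was lower at 36 h for Gbp2 (−0.52), Gbp5 (−0.35), Ifi47 (−0.23), Igtp (−0.18) and Irgm1 (−0.26). With the OX40 agonist the effect was lower at 36 h for Gbp2 (−0.43), Gbp3 (−0.27), Gbp5 (−0.46) and Samhd1 (−0.18), and higher for Ifih1 (0.30) and Usp18 (0.60). Of these 28 results, 12 remained called under every other setting and with every library left out in turn: Gbp2, Gbp5, Ifi47, Igtp and Irgm1 with TNFR2, Gbp5 and Lgals3bp with 4-1BB, Gbp2, Gbp5 and Ifi47 with DR3, and Gbp2 and Gbp5 with OX40. All the others were lost without the libraries rich in the ribosomal transcript, which are unevenly spread over the groups and whose part in the results was not tested. Several were lost in many settings, among them Gbp2 with 4-1BB and Samhd1 with OX40 (12 each), Gbp7 with 4-1BB and Ifih1 with OX40 (11 each), Gbp3 with OX40 (9), Samhd1 with TNFR2 (8), and Ddx58 with TNFR2, Igtp with DR3, Oas3 with 4-1BB and Usp18 with OX40 (7 each). Lgals3bp and Parp14 with TNFR2 were lost in 5 each, Ifih1 with TNFR2 and Usp18 with 4-1BB in 2 each, and Zbp1 with TNFR2 and Irgm1 with DR3 in 1 each.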

How the results depend on the processing

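Member results called in the fit described above were recomputed under other settings, and calls gained there were not counted. Of 2081 such values, 1941 kept their direction and, where the setting had a test, their call. A ratio of mean TPM, used among rest and the controls, has no test, so its values could only keep or reverse direction. Among the 2081, 139 were no longer called. The 1 reversal was Gbp3 in controls at 18 h against rest, at −0.0117 under the stricter filter. That filter moved the members' fold changes in that comparison by a median of −0.121. The cause of the reversal was not tested otherwise. With 1 library left out, 1433 kept and 203 lost their call. Without the 6 libraries rich in the ribosomal transcript, which leaves 1 control at 18 h that is assumed to vary like the other groups, the members called at 18 h were 10 with TNFR2, 9 with 4-1BB, 8 with DR3 and 5 with OX40, those whose effect differed between times were 5, 2, 3 and 2, and those that differed among agonists at 36 h were 5. With that transcript's share as a covariate, the differences between times numbered 7 for TNFR2, 3 for 4-1BB and 2 for OX40, and with only the compared groups fitted 3 for OX40. The cause of these losses was not tested. With each library left out in turn, the members called with OX40 at 18 h numbered 9 to 15 (9 without the first control or the second OX40 library, the latter leaving 1 OX40 library). The differences between times numbered 3 to 5 for 4-1BB (3 without library 1 at 18 h or library 2 or 3 at 36 h). For OX40 they numbered 2 to 8 (2 without the second OX40 library at 18 h or the first control at 36 h, 3 without control 2 at 18 h or OX40 library 2 or 3 at 36 h). Those among agonists at 36 h numbered 6 to 10 (6 without the first 4-1BB library). Replicate numbers did not pair the libraries, with correlations of their deviations from −0.167 to 0.137 and no comparison of 11 with every pair over 0.1. A replicate block gave 15 members with OX40 at 18 h, 14 with OX40 at 36 h, 5 differences between times for OX40 and 9 among agonists at 36 h, and the same counts as without it elsewhere (36, 36 and 25 between rest and controls). Low counts limit Oas2, Rsad2 and the other members under 2 CPM, of which there were 5 in controls at 18 h and 8 at 36 h.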
